A study of Homo sapiens with 6 samples.

Results

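The transcripts of the endoplasmic reticulum (ER) glucosidases were followed in UMUC3 cells, an established line from a human bladder carcinoma, grown in mice. The members are the 3 genes GANAB, PRKCSH and MOGS, taken by symbol from a count table of 21503 genes, and each matched 1 row. RNA came from cells placed orthotopically in the bladders of C57 nude mice and kept there for 14 days, with the mice otherwise in normal conditions. One group of 3 libraries held control UMUC3 cells and the other group of 3 held UMUC3 cells with GANAB knock down. The sources used here do not give the knockdown method, the control construct, the age of the mice or whether each library had its own animal, so p-values measured the spread between these libraries, which may be technical.

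Newly made secretory and membrane proteins receive an N-glycan in the ER that ends in a short chain of glucoses. Glucosidase I, the membrane enzyme encoded by MOGS, removes the outermost glucose, and glucosidase II then removes the inner ones. Glucosidase II has a catalytic alpha subunit, encoded by GANAB, and a beta subunit, encoded by PRKCSH, which carries a mannose-binding domain and an ER retrieval signal and is needed for full activity and ER localization of the enzyme. When a single glucose remains, the glycoprotein can bind the lectin chaperones calnexin and calreticulin. Inherited variants of GANAB or PRKCSH are a known cause of polycystic liver and kidney disease, and inherited loss of MOGS causes a congenital disorder of glycosylation.

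GANAB (ENSG00000089597) lies on chromosome 11 at 62624826 to 62646726 on the minus strand of GRCh38, and no other annotated gene overlaps it. PRKCSH (ENSG00000130175) lies on chromosome 19 at 11435288 to 11450968 on the plus strand, and its first 495 bases overlap CCDC151, a gene of the opposite strand. MOGS (ENSG00000115275) lies on chromosome 2 at 74461057 to 74465410 on the minus strand without an overlap. All values are given per gene, so they do not separate isoforms. How reads were summed over exons and UTRs is not stated by the sources used here.

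Both glucosidase II genes were lower in the knockdown, so a stretch before the first RefSeq start of each is shown, chosen because both hold the same short motif. RefSeq promoter sequence (GRCh38.p14) was at hand for 1 start of GANAB and 3 starts of PRKCSH but not for MOGS. In the lines below, read along the gene's own strand, capitals mark the letters CCGGAAG, the core bound by ETS family factors, and in GANAB also a CCAAT box.
GANAB, chr11:62646670-62646699, minus strand: gaaCCAATcataaggCCGGAAGgggcggga
PRKCSH, chr19:11435587-11435616, plus strand: gtgcggaacgtacgaCCGGAAGtgacgggg
The core CCGGAAG began 71 bases before the RefSeq start of GANAB and 33 bases before the first start of PRKCSH. The same copy lies 43 bases before the second PRKCSH start, and the window of the third start holds no CCGGAAG. GENCODE places the starts of both genes further upstream, so the stretches lie inside the gene spans given above. Searched on both strands, CCGGAAG or its complement CTTCCGG was present in 8.82% of 27305 promoters over the same 250 bases before the start. CCAAT or ATTGG was present in 33.04% of them, 2 times in GANAB. It was present 0 times before the first and second PRKCSH starts and 5 times, overlapping copies included, before the third. The ER stress element, through which ATF6 acts, joins CCAAT and CCACG across 9 bases. It was present in 0.0806% of all promoters and in neither the GANAB window nor that of the first PRKCSH start. Its short form joins ATTGG and CCACG across 1 base, was present in 0.0513% of all promoters and was also in neither of these. Both forms contain the CCAAT box or its complement. These motifs were chosen after the sequences were seen, and a match describes letters only.

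Total estimated counts per library ranged from 11737837 to 40039584. Of the counts, 32.6% were mitochondrially encoded in control library 1 against 2.18% to 6.53% in the other 5 libraries. Spread was unequal: the biological coefficient of variation over all genes was 52.3% in the control and 10.7% in the knockdown group. Of 19430 genes tested, 8.31% passed in edgeR at an adjusted p under 0.05, 3.72% lower and 4.59% higher in the knockdown. The summed level of 6 smooth muscle markers was 96.4 to 149 TPM in control and 328 to 343 TPM in knockdown libraries. TPM is a level scaled for gene length and library total. In TPM all 6 were higher in every knockdown than in any control library, and 2 of the 6 passed as higher in edgeR. MYH11 was at 0.203 to 1.12 TPM in control against 12.1 to 12.5 TPM, and ACTG2 at 54.9 to 85.9 against 184 to 193 TPM. Of the other host markers, none of the 5 fibroblast, 6 endothelial, 4 leukocyte and 1 erythroid genes that could be tested passed. Fibroblast markers summed to 8.02 to 44.8 TPM in control and 55.3 to 72.2 TPM in knockdown libraries. LUM was at 0, and DCN and PDGFRA were under 1 TPM, in every library. COL1A1 was at 3.04 to 15.3 TPM in control against 19.9 to 21.7 TPM, and COL1A2 at 2.64 to 21.9 against 29.998 to 43.8 TPM. COL1A1, COL1A2 and DCN (0 to 0.069 against 0.354 to 0.825 TPM) were higher in every knockdown than in any control library. COL3A1, PDGFRA and FAP overlapped. Endothelial markers summed to 8.28 to 45.9 TPM against 9.97 to 13.2 TPM, with PECAM1, KDR, VWF and EMCN under 1 TPM. Most of that sum was TIE1 (7.06 to 45.5 against 7.44 to 10.1 TPM), while CDH5 (0 to 0.222 against 0.844 to 1.12 TPM) and ESAM (0 to 1.07 against 1.34 to 2.04 TPM) were higher in every knockdown library. Leukocyte markers summed to 55.7 to 210 TPM against 47.0 to 50.8 TPM, most of it CD68, with PTPRC under 1 TPM, and erythroid markers to 1.39 to 2.14 TPM against 0.868 to 1.57 TPM. Of the 9 tested markers of the labelled cell type 1 rose, and their list summed to 160 to 431 TPM in control against 376 to 404 TPM. KRT8 and KRT18 were at 61.2 TPM or more in every library, while the urothelial genes UPK3A and KRT20 were at 0 and CDH1 was under 1 TPM. UPK1A, UPK1B, UPK2 and GATA3 were low but higher in every knockdown than in any control library. UPK1A was at 0.187 to 0.897 TPM in control against 4.57 to 6.45 TPM, and UPK1B at 0.419 to 1.62 against 2.57 to 4.67 TPM. UPK2 was at 0 to 1.21 against 3.77 to 5.70 TPM and GATA3 at 0.213 to 0.435 against 1.27 to 2.68 TPM. PPARG overlapped, at 2.64 to 8.22 TPM in control against 2.05 to 4.10 TPM. KRT5 (1.52 to 7.95 against 4.98 to 7.23 TPM) and EPCAM (0 to 0.301 against 0.202 to 1.14 TPM) overlapped too. In CPM, 21.9% of all genes tested were without overlap and higher in the knockdown. The share in TPM, the scale of the marker values, was not computed. Over all genes, differences in the TPM fits lay higher than those in counts. The part of the marker differences in the results below was not tested, and in bulk RNA fewer cells of a type and less RNA per cell cannot be told apart. The host was a mouse, the named reference is the human GRCh38, and how mouse reads were treated is not stated. A low host marker therefore does not show that host cells were few. The share of mouse reads in any value, GANAB included, was not tested.

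GANAB, the targeted gene, was lower in every knockdown library than in any control library. The 3 control libraries, in order of number, held 18621, 15695 and 8030 estimated counts, which became 685, 825 and 661 CPM after TMM normalization (counts scaled to a common library size). The knockdown libraries held 9328, 9348 and 9785 counts, or 231, 238 and 231 CPM. The groups did not overlap, control library 2 was the highest, and the knockdown values were nearly equal to each other, with a coefficient of variation of 1.76% against 12.2% in control. The share of 19430 genes without overlap between the groups was 37.6%, and 15.7% were without overlap and lower in the knockdown. The fitted knockdown level was 32.2% of control with a 95% interval of 25.7% to 40.5% (log2 fold change -1.63, SE 0.141, edgeR adjusted p = 0.00239). By p-value GANAB stood at position 39 of the 19430 genes, and by log2 fold change at position 518 from the lowest. The remaining GANAB RNA carried a counting error of 1.01% to 1.04% in the knockdown libraries. In TPM GANAB ranked 1113 to 1212 of 19854 protein-coding genes in the knockdown and 379 to 444 in control.

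PRKCSH, the beta subunit gene, also fell. Control libraries 1, 2 and 3 gave 361, 468 and 367 CPM from 9808, 8902 and 4463 counts. Knockdown libraries 1, 2 and 3 gave 232, 219 and 233 CPM from 9343, 8591 and 9872 counts. As for GANAB, the groups did not overlap and control library 2 was the highest value. The fitted level was 57.1% of control (95% interval 44.9% to 72.6%, log2 fold change -0.81, SE 0.148, edgeR adjusted p = 0.0218). The PRKCSH call was lost when any 1 knockdown library was left out (adjusted p = 0.145 to 0.149, log2 fold change -0.82 to -0.78), although the size of the difference held. GANAB kept its call without any 1 of the 6 libraries (edgeR adjusted p = 5.36e-05 to 0.0455). Of the 3 members, GANAB was the targeted gene, and its fall was the aim of the design. Of the other 2, PRKCSH was lower and MOGS was not called, beside 3.72% of all genes lower and 4.59% higher. In CPM, PRKCSH was without overlap and lower, beside 15.7% of all genes. The MOGS groups overlapped, and 21.9% of all genes were without overlap and higher.

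MOGS, the gene of glucosidase I, did not pass the test. Control libraries 1, 2 and 3 held 56.6, 87.8 and 48.2 CPM from 1539, 1670 and 586 counts. The knockdown libraries held 71.2, 72.6 and 69.6 CPM from 2870, 2849 and 2956 counts. The knockdown values lay inside the range of the controls, above libraries 1 and 3 and below library 2. The control coefficient of variation was 32.5%, and the counting error in those libraries was 2.45% to 4.13%. The fitted level was 111% of control with a 95% interval of 77.2% to 159% (log2 fold change 0.15, SE 0.223, edgeR adjusted p = 0.733), which includes no change and excludes a fall of the size fitted for PRKCSH or GANAB. Control library 2 decided the call: without it the log2 fold change of MOGS was 0.44 and passed (SE 0.0917, adjusted p = 0.0116 in edgeR), in a fit where 27.7% of all genes passed. Without control library 3 the estimate was -0.074.

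**Figure D1:**
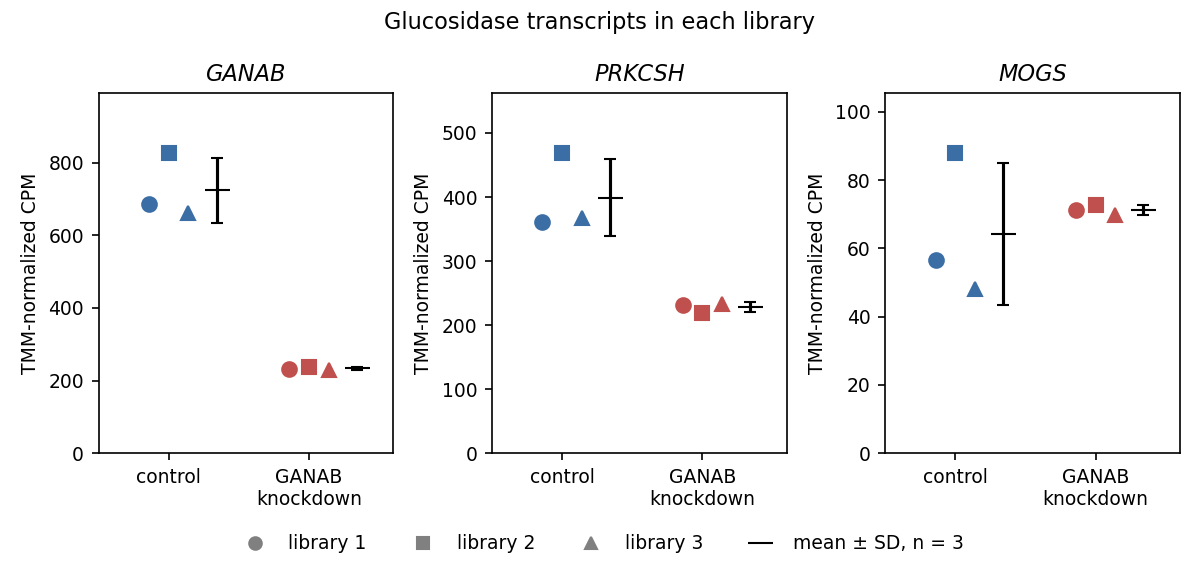
TMM-normalized CPM of the 3 glucosidase genes (vertical axes, each from 0) in control and GANAB knockdown libraries, with library numbers as symbols and black bars for the mean ± SD of 3 libraries. Control library 2 is the highest control value of all 3 genes, and the groups separate for GANAB and PRKCSH but not for MOGS.

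Per unit of length PRKCSH was the most abundant of the 3 transcripts in all 6 libraries, followed by GANAB and then MOGS. In TPM, PRKCSH stood at 186, 380 and 286 in control libraries 1 to 3 and at 186, 190 and 196 in the knockdown libraries. GANAB stood at 162, 286 and 253 TPM in control and at 91.1, 99.9 and 94.1 TPM in knockdown. MOGS stood at 18.5, 43.5 and 23.2 TPM in control and at 37.1, 41.95 and 37.6 TPM in knockdown. On this scale the PRKCSH groups overlapped, because control library 1 sat at the knockdown level. Mitochondrially encoded genes made up 35.6% of TPM in control library 1 and 3.33% to 10.9% in the other libraries. With those genes removed and the rest rescaled, PRKCSH was 289, 407 and 296 TPM in control and 208, 211 and 220 TPM in knockdown, and the groups no longer overlapped. PRKCSH did not pass on this rescaled scale, with a log2 fold change of -0.62 (limma-trend, adjusted p = 0.0711), and GANAB did, at -1.36 (adjusted p = 0.00549).

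A ratio of 2 genes within a library does not depend on how the library was scaled. The ratio of PRKCSH to GANAB transcripts in TPM was 1.15, 1.33 and 1.13 in control libraries 1, 2 and 3. In knockdown libraries 1, 2 and 3 it was 2.04, 1.90 and 2.08, so the balance of the 2 subunit transcripts lay further towards the beta subunit in each of them than in any control. The mean log2 ratio was higher by 0.74, at 0.26 ± 0.130 in control and 1.01 ± 0.0689 in knockdown (SD, n = 3 each; 2-sided exact permutation test p = 0.10, the smallest that 3 against 3 libraries can give). The ratio of MOGS to GANAB was 0.114, 0.152 and 0.0916 in control and 0.407, 0.420 and 0.399 in knockdown libraries. That log2 ratio was higher by 1.81 (exact permutation p = 0.10). The ratio of MOGS to PRKCSH was 0.0992, 0.114 and 0.0811 in control and 0.199, 0.221 and 0.191 in knockdown libraries, a difference of 1.06 on the log2 scale (exact permutation p = 0.10). All 3 ratios were free of overlap, and adjustment over the 3 pairs left p at 0.10.

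A higher ratio to GANAB was the rule for other genes too, GANAB being the lowered gene. Of 12263 other genes above 1 TPM in every library, 92.8% had a higher ratio to GANAB in every knockdown than in any control library, with a median difference of 1.48 on the log2 scale. The difference for MOGS lay above 73.7% of these genes and that for PRKCSH above 7.62% of them. Against PRKCSH, 64.6% of genes had a higher ratio without overlap, with a median difference of 0.73. Against PRKCSH, the difference for GANAB lay above only 0.930% of the genes. A shared denominator drops out of such a ranking, so MOGS lay above the same 73.7% of genes in its ratio to either subunit. This is 1 result, its position by difference in TPM. In the count fit MOGS stood nearer the middle, at position 11073 of 19430 genes from the lowest log2 fold change. PRKCSH lay low among the genes in its ratio to GANAB.

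**Figure D2:**
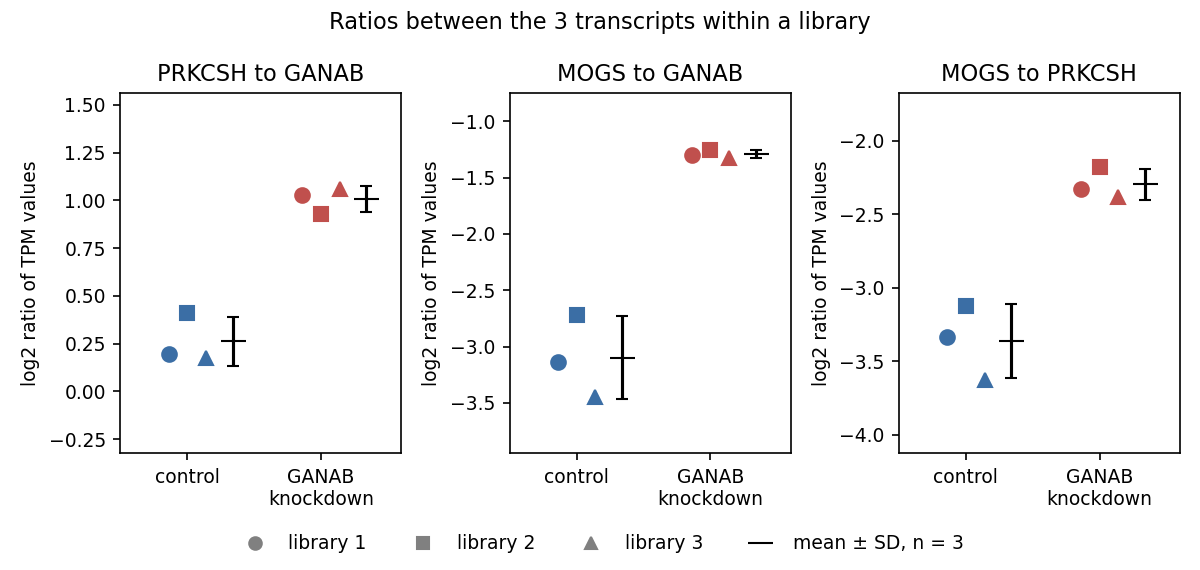
Log2 ratio of TPM values (vertical axes) for each pair of the 3 genes in control and knockdown libraries, with library numbers as symbols and black bars for the mean ± SD of 3 libraries. The knockdown libraries lie above every control library in all 3 pairs, by 0.74, 1.81 and 1.06 between the group means.

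The direction of the GANAB and PRKCSH differences was the same in all 19 other ways of processing the tables. The log2 fold change of GANAB ranged from -1.75 to -1.25 and that of PRKCSH from -0.92 to -0.51. MOGS ranged from -0.074 to 0.55. The smallest falls of GANAB and PRKCSH and the largest MOGS values came from the TPM fits, where the median log2 fold change over all genes was 0.23 with 1 added to the TPM, against 0.033 in the count fit. With 1 added GANAB was at -1.25 and passed (limma-trend adjusted p = 0.0467). It did not pass with 0.1 added (adjusted p = 0.0553) or without a filter on low values (adjusted p = 0.193). GANAB passed in the other 17 alternatives and PRKCSH in 11 of 19. MOGS passed in 1 of 19, the fit without control library 2.

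How many genes passed overall differed widely among these settings and sets the scale for the members' calls. In edgeR the share of genes called was 8.31% with DESeq2 size factors, 8.19% with upper quartile scaling, 6.98% without a filter and 15.3% with a filter of at least 5 CPM in 3 libraries. It was 17.1% with DESeq2, 12.1% with limma-voom and 8.34% with voom weights per group. Among the TPM fits it was 5.31% with 1 added, 3.38% with 0.1 added, 0.113% with 1 added and no filter, and 7.88% after mitochondrially encoded genes were removed and the rest rescaled. Removing those genes in edgeR gave 8.52%, and a term for the replicate number gave 2.91%. Leaving out control library 1, 2 or 3 gave 7.89%, 27.7% or 8.66%, and leaving out knockdown library 1, 2 or 3 gave 0.311%, 0.575% or 0.44%. GANAB was among the few genes still called in the last 3 fits and PRKCSH was not.

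**Figure D3:**
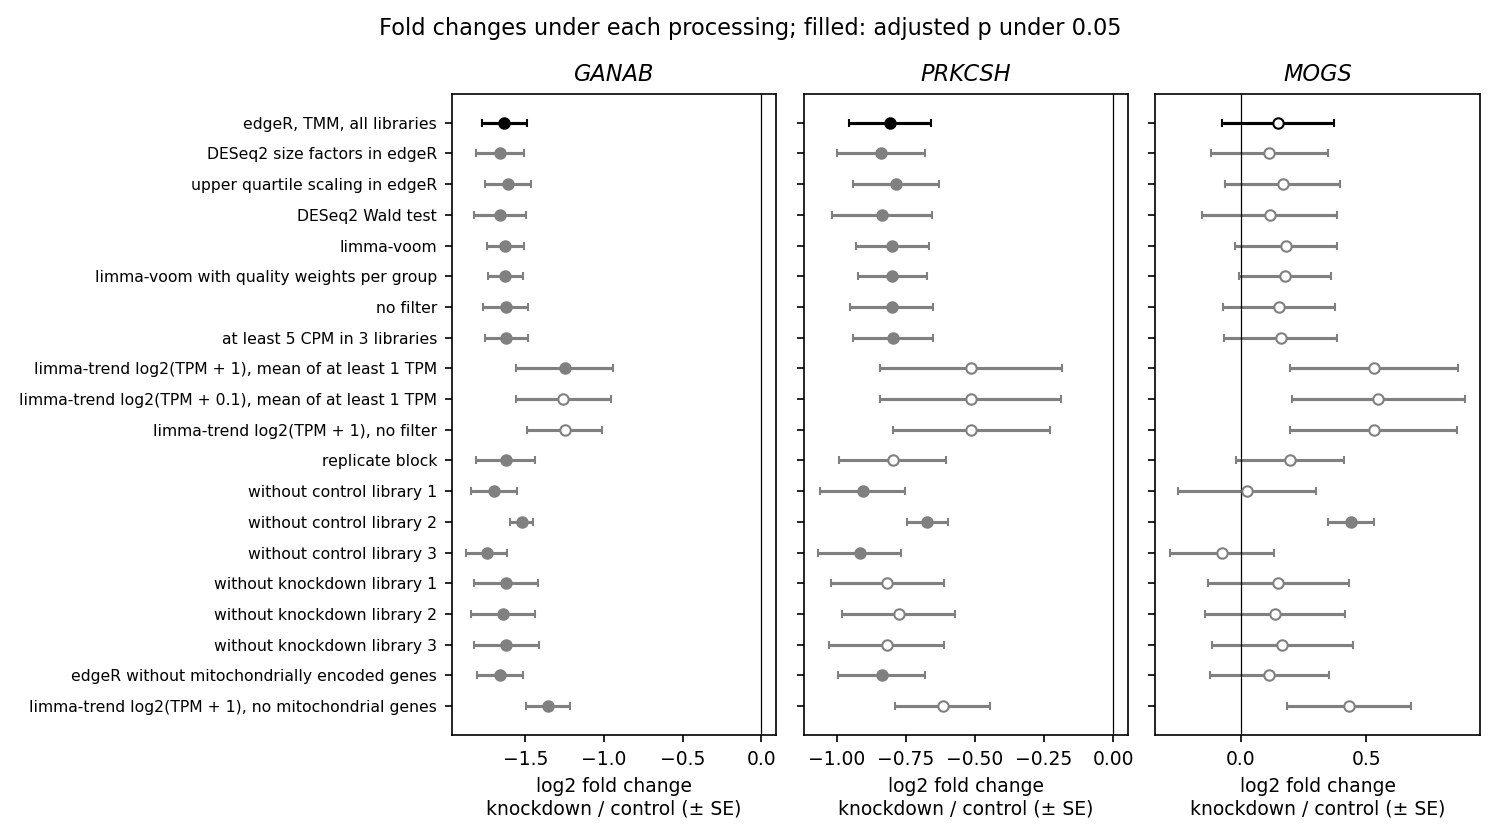
Log2 fold change of knockdown over control (horizontal axes, bars ± SE) of the 3 genes under the reported fit, in black, and 19 alternatives, in grey, with filled points where the adjusted p was under 0.05. GANAB and PRKCSH stay below 0 throughout, from -1.75 to -1.25 and from -0.92 to -0.51, while MOGS lies between -0.074 and 0.55.

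The genes whose profile over the 6 libraries was closest to each member were found by the root mean square difference of centred log2 CPM, among 9573 other protein-coding genes with a mean of at least 10 CPM. For GANAB these were FDPS (0.0925), which encodes farnesyl diphosphate synthase, DLGAP5 (0.104), a mitotic spindle protein gene, and NCAPH (0.107), a condensin subunit gene. Their log2 fold changes were -1.48, -1.60 and -1.49. PRKCSH stood at position 319 from GANAB, at a distance of 0.417, and MOGS at position 6286, at 0.924. For PRKCSH the closest were AP1B1 (0.0386), a clathrin adaptor subunit gene, SF3B2 (0.0449), a splicing factor subunit gene, and AKR1B1 (0.050), the aldose reductase gene, with log2 fold changes of -0.82, -0.84 and -0.84. For MOGS the closest were the receptor tyrosine kinase gene AXL (0.0302), the sorting nexin gene SNX11 (0.0356) and NPRL3 (0.0377), a gene of the GATOR1 complex, with log2 fold changes of 0.19, 0.17 and 0.085 that did not pass. FDPS, AP1B1, SF3B2, AXL and NPRL3 overlap genes of the opposite strand. Likeness here includes the group difference and the height of control library 2.

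Genes next to the members on the chromosome were read from the same fit. The neighbours of GANAB did not pass: INTS5, which ends 122 bases upstream of GANAB on the same strand, had a log2 fold change of -0.17 (SE 0.322), and B3GAT3, 2651 bases downstream, had -0.048 (SE 0.215). CCDC151, which overlaps the start of PRKCSH, had a mean of 1.90 CPM in the control group and of 2.61 CPM in the knockdown (log2 fold change 0.45, edgeR adjusted p = 0.677), far below PRKCSH. WBP1, whose 3′ end lies 166 bases from the 3′ end of MOGS on the opposite strand, rose from 65.7 to 112 CPM (log2 fold change 0.77, SE 0.170, edgeR adjusted p = 0.0356), and it overlaps the readthrough gene INO80B-WBP1. The WBP1 call was lost in the fits that left out control library 3 or knockdown library 1, 2 or 3 (edgeR adjusted p = 0.0569 to 0.175). MRPL53, the neighbour of MOGS on the other side, was at 26.4 CPM in the controls and 25.9 CPM in the knockdown (log2 fold change -0.026, edgeR adjusted p = 0.969). RGL3 and ELAVL3, the nearest genes beside PRKCSH, were not tested. Without control library 2, CCDC151 (1.35, adjusted p = 0.0442) and MRPL53 (0.40, adjusted p = 0.0417) passed as higher in edgeR.

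Around the 3 members, 56 further genes of the pathway and of related families were read from the same fit, of which 53 were tested. Of these, 4 fell and 3 rose, 13.2% against 8.31% of all genes, and the median log2 fold change was -0.068 against 0.033 for all genes. None of the 7 passed when knockdown library 1, 2 or 3 was left out, as 0 of the 53 did in those fits. Without control library 2, 8 fell and 8 rose, where 27.7% of all genes passed. With all 6 libraries, 17 of the 53 were without overlap in CPM in either direction, beside 37.6% of all genes.

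Upstream of the glucosidases, the glucose donors' enzymes build the chain that MOGS and GANAB later remove. None of ALG5, ALG6, ALG8, ALG10 and ALG10B passed, and their median log2 fold change was -0.32. ALG8, which adds the middle glucose and was the most abundant in TPM, had -0.32 (SE 0.211). Of 12 oligosaccharyltransferase genes, whose products move the glycan onto protein, 1 fell and none rose, with a median of -0.083. RPN1, the ribophorin I gene, was 363, 422 and 365 CPM in control and 222, 230 and 226 CPM in knockdown libraries (log2 fold change -0.76, SE 0.128, edgeR adjusted p = 0.0168). Its groups did not overlap, where 15.7% of all genes were without overlap and lower. OST4, the most abundant subunit gene per length, had a log2 fold change of 0.037.

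Downstream of glucosidase II, 1 of 7 genes for reglucosylation and glucose-binding lectins fell and none rose (median -0.35). CALR, the calreticulin gene, was 1387, 2014 and 1262 CPM in control and 539, 549 and 536 CPM in knockdown libraries (log2 fold change -1.52, SE 0.199, edgeR adjusted p = 0.00842). CALR was thus close to GANAB in size of fall and had the same order of control libraries. CANX, which encodes the membrane-bound lectin calnexin, was 1090, 828 and 1142 CPM in control and 1005, 1078 and 1027 CPM in knockdown libraries, with a log2 fold change of 0.023 (95% interval -0.35 to 0.40). UGGT1, whose product puts a glucose back on misfolded glycoproteins, had -0.36 (adjusted p = 0.246), and UGGT2 had 0.098. CANX, UGGT1 and UGGT2 were named after their values were seen.

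Of 10 genes of mannose trimming and ER exit, LMAN1 fell and MAN1C1 rose (median -0.17). LMAN1, a mannose-binding cargo receptor gene, was 147, 102 and 143 CPM in control and 77.97, 80.2 and 77.4 CPM in knockdown libraries (log2 fold change -0.74, edgeR adjusted p = 0.0386). MAN1C1, a Golgi mannosidase gene, rose from 1.55, 1.63 and 1.07 CPM in the controls to 3.33, 4.63 and 5.94 CPM (log2 fold change 1.70, edgeR adjusted p = 0.0388). MAN1A1, another Golgi mannosidase gene, was 120, 3.00 and 113 CPM in control and 6.15, 4.63 and 6.17 CPM in knockdown libraries. It did not pass (log2 fold change -3.80, edgeR adjusted p = 0.0701), and control library 2 was not above the knockdown libraries. MAN1A1 was named after its values were seen. LMAN2, the most abundant in TPM, had a log2 fold change of -0.11. The Golgi endomannosidase can cut glucosylated mannose from glycans that kept their glucoses and so bypass the glucosidases. Its genes MANEA (0.32) and MANEAL (-0.038) did not pass, and MANEAL, the more abundant in TPM, had 22.9 ± 3.84 CPM in the control group and 22.3 ± 1.81 CPM in the other (SD, n = 3 each).

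Relatives of GANAB in its glycoside hydrolase family include the lysosomal and intestinal alpha-glucosidases. Of 6 such genes 4 were tested, and MYORG, a family member of the secretory pathway, rose from 13.8, 12.2 and 16.3 CPM to 23.3, 24.1 and 25.6 CPM (log2 fold change 0.79, SE 0.173, edgeR adjusted p = 0.0347). GAA, the acid alpha-glucosidase gene of lysosomes and the most abundant relative in TPM, had 0.42 (adjusted p = 0.0897), and GANC, which encodes neutral alpha-glucosidase C, had 0.32 (adjusted p = 0.411). GANC had a mean of 11.6 CPM in the controls and of 14.5 CPM in the knockdown. It was named after its values were seen. None of 6 genes of proteins with the mannose-binding MRH domain of PRKCSH, or of the phosphotransferase that acts with them, passed (median 0.23), and OS9, the most abundant in TPM, had 0.32 (adjusted p = 0.220).

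Genes in which inherited variants cause polycystic kidney or liver disease, besides GANAB and PRKCSH, were also read. Of 9 such genes 8 were tested, 1 fell and 1 rose, and the median was -0.047. PKD1, which encodes polycystin-1, was 70.8, 55.5 and 42.4 CPM in control and 115, 110.2 and 114 CPM in knockdown libraries (log2 fold change 1.01, SE 0.194, edgeR adjusted p = 0.0248). PKD1 has near-identical pseudogene copies and overlaps 9 annotated genes, so its share of reads is uncertain. DNAJB11, an ER co-chaperone gene, was 106, 99.98 and 115 CPM in control and 76.6, 77.6 and 71.8 CPM in knockdown libraries (log2 fold change -0.50, SE 0.124, edgeR adjusted p = 0.0498). The DNAJB11 call lay at the threshold and was lost in 13 of 19 alternatives, among them upper quartile scaling (edgeR adjusted p = 0.0555). SEC61B, the most abundant per length (TPM), had a log2 fold change of -0.16. PKD2, named after its values were seen, had 0.69 and did not pass (edgeR adjusted p = 0.0571). CALR, DNAJB11, MAN1C1 and GNPTG also overlap other annotated genes on the opposite strand, and no source used here says whether counting used strand.

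**Figure D4:**
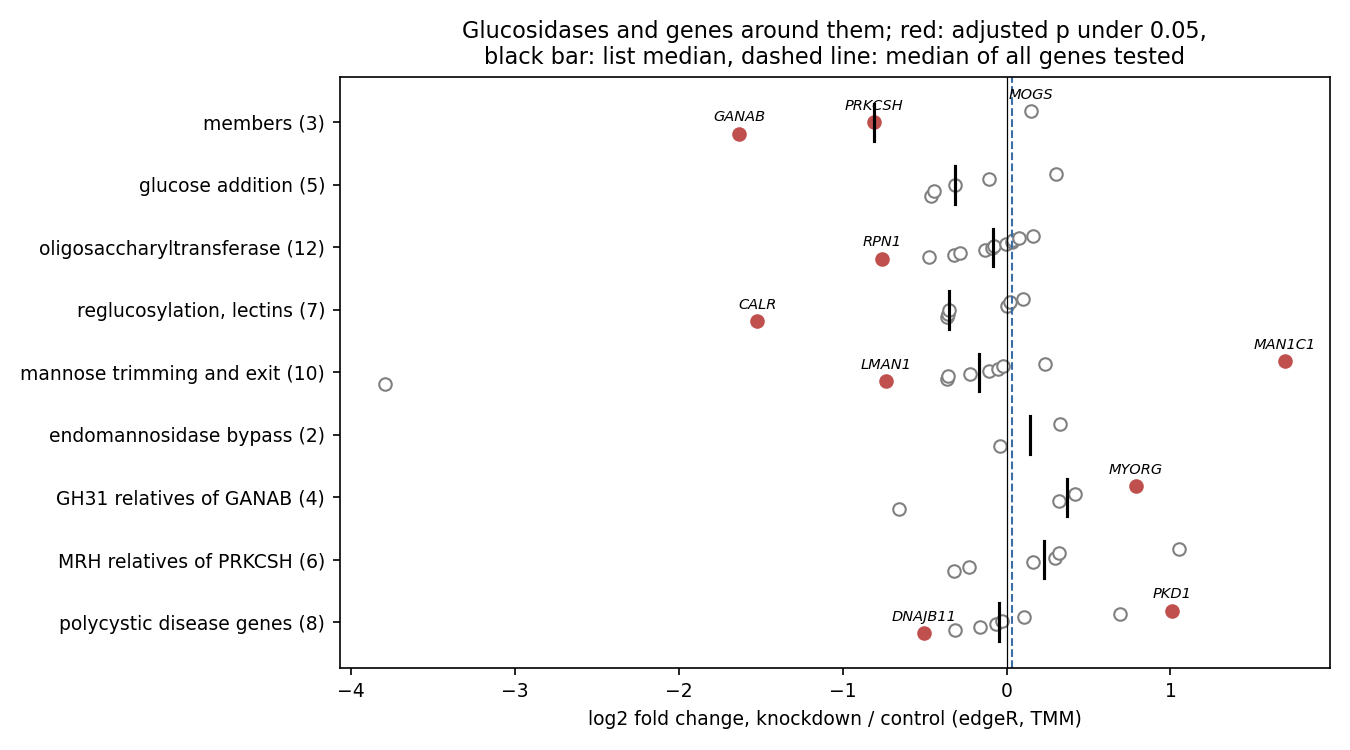
Log2 fold change of knockdown over control (horizontal axis) of the 3 glucosidase genes and 8 lists of related genes, 1 point per tested gene, with the number tested in parentheses. Red points passed (adjusted p under 0.05), black bars are list medians and the dashed line is the median of all genes, 0.033. GANAB at -1.63 and CALR at -1.52 are the lowest red points.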

How the data were processed

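Bulk RNA-seq libraries were made from 200 ng of TRIzol-extracted total RNA with a VAHTS Universal V6 kit, per the labels' protocols. The submitters' processing notes name fastp, Salmon, DESeq2 and GRCh38. The sources used here do not state their versions and roles, the transcript index or how mouse reads were treated. The authors deposited estimated counts per gene, whole numbers without normalization (21503 genes), and TPM values (60233 genes). Knockdown columns carry a knockout abbreviation and were matched by group and number.

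The main test was edgeR 4.0.16 (R 4.3.3), quasi-likelihood, 2-sided, with filterByExpr (2073 genes removed), TMM and Benjamini-Hochberg adjustment over 19430 genes. It was checked on counts simulated with the same dispersion in both groups, so the check did not cover the unequal spread seen here. Standard errors and intervals came from the F statistic. Alternatives used DESeq2 1.42.0, limma 3.58.1, other scalings and filters, TPM with 1 or 0.1 added, and left-out libraries; the fits without mitochondrially encoded genes were added after seeing the data. Coordinates came from GENCODE release 29 and promoters from RefSeq. Depth was 11737837 to 40039584 counts, and counting errors assume independent reads. Same-numbered libraries did not deviate together (r = 0.00223 to 0.0218).

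The members, lists and tests were chosen with earlier results of these data known. Named genes were the members, their 3 nearest in pattern, their neighbours, and the called and most abundant genes of each list.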

Additional observations from a re-analysis of the deposited data

How the results depend on the processing

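With 3 libraries a group and an unequal spread, calls depended on which libraries entered. Over the 6 fits without 1 library, GANAB ranged from -1.75 to -1.52 on the log2 scale, PRKCSH from -0.92 to -0.67 and MOGS from -0.074 to 0.44, and genes changed from 62 to 5604. Pathway genes numbered 0 to 8 lower and 0 to 8 higher. The fold change was 0.44 for MOGS without control library 2 and -0.074 without control library 3. PRKCSH lost its call with 1 added to the TPM (-0.51 with and without a filter, adjusted p = 0.427 and 0.854), with 0.1 added (-0.51, adjusted p = 0.421) and with 1 added after removal of mitochondrially encoded genes (-0.62). GANAB lost its call with 0.1 added (-1.26) and with 1 added and no filter (-1.25). The cause was not tested. With the replicate number as a block, PRKCSH was at -0.80 (adjusted p = 0.0773), GANAB at -1.63 (adjusted p = 0.0136), 566 genes changed, and 1 pathway gene was lower and 1 higher. Same-numbered libraries share only a number by the labels, though each correlated best with its own number. Genes changed numbered 3676 by DESeq2, where 6 pathway genes were higher, and 828, 526 and 68 on the 3 TPM settings, where 0 pathway genes were lower and 0 higher; without mitochondrially encoded genes 2 were lower and 1 higher. Of those changed, 90.7% were higher on TPM with 1 added, 89.4% with 0.1 added, 100% without a filter, 77.2% without mitochondrially encoded genes, 44.0% with voom weights per group and 55.3% in the reported fit. All 3 ratios moved by less than the control SD in all 9 alternatives each. Of 14 other named genes that passed, WBP1 included, none reversed and none passed in every one of the 19 alternatives. Among the 33 named genes run, reversals were limited to genes that had not passed. ALG8 reached 0.035 with 1 added to the TPM, with or without a filter, and 0.038 with 0.1 added. On the 3 TPM settings, LMAN2 was at 0.12, 0.13 and 0.12, MANEAL at 0.28, 0.30 and 0.28 and SEC61B at 0.11 in each, and without mitochondrially encoded genes at 0.021, 0.18 and 0.0044. Without 1 library, LMAN2 ranged from -0.34 to 0.22 (reversed without control library 2), MANEAL from -0.18 to 0.11 (reversed without control library 2 and, at 0.029, knockdown library 3), SEC61B from -0.39 to 0.22 (without control library 2) and OST4 from -0.17 to 0.23 (without control library 1). AXL ranged from -0.026 to 0.46 and SNX11 from -0.038 to 0.46 (both reversed without control library 3), and NPRL3 from -0.15 to 0.40 (reversed without control library 1, at -0.038, and library 3). On the 3 TPM settings (1 added, 0.1 added, 1 added without a filter), B3GAT3 was at 0.23, 0.24 and 0.23, INTS5 at 0.12, 0.16 and 0.12, MRPL53 at 0.25, 0.26 and 0.25 and UGGT1 at 0.024, 0.025 and 0.024. Without mitochondrially encoded genes, B3GAT3 was at 0.13, INTS5 at 0.042, MRPL53 at 0.15, UGGT2 at -0.027 and GANC at -0.026. MRPL53 was at 0.042 with voom, with and without weights, and 0.059 with the replicate block, and CANX at -0.0013 with DESeq2 size factors. Without 1 library, B3GAT3 ranged from -0.22 to 0.24, INTS5 from -0.44 to 0.31, MRPL53 from -0.28 to 0.40 and CANX from -0.10 to 0.063, each reversed without control library 2, MRPL53 also without knockdown library 1 (0.017) and CANX also without knockdown library 2 (-0.0012).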

Other observations

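The 2 deposited tables together give each gene's estimated counts per TPM, which follow the transcript length assigned to the gene in that library. Relative to the median of 12264 genes above 1 TPM in every library, this index was 1.75, 1.77 and 1.74 for GANAB in control libraries 1, 2 and 3 and 1.64, 1.57 and 1.57 in the knockdown libraries. The groups did not overlap, and the mean fell by 9.17%. Of the 12264 genes, 13.4% had no overlap between the groups in this index and 7.31% were without overlap and lower in the knockdown. The PRKCSH index was 0.804 ± 0.0498 in control and 0.773 ± 0.0268 in knockdown libraries (SD, n = 3 each), and the MOGS index was 1.30 ± 0.0765 and 1.19 ± 0.0520, both with overlap. The mean index was 90.8% of control for GANAB and 91.6% for MOGS. A lower index makes a fall smaller in TPM than in counts. How much of the GANAB difference between the 2 scales came from the index was not tested. No isoform values were used here.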
